A study of Mus musculus with 10 samples.

Results

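The 10 genes described here are the myogenic regulators Pax7, Myf5, Myod1, Myog and Myf6, the fusion genes Mymk and Mymx, and the satellite cell genes Cdh15, Megf10 and Calcr, chosen by name from the 54232 genes of the expression table. The samples are RNA-seq libraries of gastrocnemius, the large muscle of the calf, from 5 homozygous desmin knock-out mice (genotype Des -/-) and 5 wild-type mice (Des wt/wt). All 10 mice carry the strain name B6J.129Sv-Destm1Cba/Cscl and, per the study's methods, were littermates of 3 months of age. The wild-type group thus shares the strain and differs in the Des allele. Whether it also differs in DNA linked to Des was not tested. The knock-out is constitutive and is therefore carried by muscle fibers, satellite cells and all other cells of the sample alike. The methods speak of RNA pooled from 5 muscles per genotype and a figure legend adds the neighboring plantaris muscle, whereas the labels number 5 mice of each genotype and the table holds 10 columns. Each column was taken as 1 mouse, and the p-values measure the spread between these columns, which would be technical if the RNA had been pooled.

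Skeletal muscle repairs itself from satellite cells, stem cells that lie between the fiber and its basement membrane and are marked by the paired-box transcription factor Pax7. Once activated, these cells express Myf5 and Myod1, then Myog (myogenin), and leave the cell cycle. They finally fuse with each other or with a fiber by means of the membrane proteins myomaker (Mymk) and myomixer (Mymx). Myf5, Myod1, Myog and Myf6 (MRF4) are the basic helix-loop-helix factors known as myogenic regulatory factors, which bind the E-box CANNTG together with E proteins. Myf6 is the member that mature fibers express most, and Myog and Myod1 are also transcribed by fiber nuclei, Myog above all after loss of the nerve.

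The 250 bases before the transcription start are printed from RefSeq (GRCm38.p6) to show where CANNTG occurs. They belong to 2 genes of the family and 2 sarcomere genes of newly formed fibers. Of the 10 genes 5 had a promoter entry (Pax7, Myf5, Myog, Cdh15 and Calcr), and Myod1, Myf6, Mymk, Mymx and Megf10 had none. Myog (chr1:134289754-134290003, forward strand), Myh3, which encodes embryonic myosin (chr11:67078050-67078299, forward strand), and Tnnt2, which encodes the cardiac and embryonic troponin T (chr1:135836084-135836333, forward strand), were all higher in desmin knock-out muscle, as described below. Myf5 (chr10:107486135-107486384, reverse strand) did not pass the test. Capitals mark each CANNTG, which reads the same on both strands.
Myog: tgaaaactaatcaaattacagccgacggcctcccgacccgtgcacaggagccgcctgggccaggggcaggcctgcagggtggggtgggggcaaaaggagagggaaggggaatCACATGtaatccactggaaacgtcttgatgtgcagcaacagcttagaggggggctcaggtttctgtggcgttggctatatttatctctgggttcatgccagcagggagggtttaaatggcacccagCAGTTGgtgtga
Myh3: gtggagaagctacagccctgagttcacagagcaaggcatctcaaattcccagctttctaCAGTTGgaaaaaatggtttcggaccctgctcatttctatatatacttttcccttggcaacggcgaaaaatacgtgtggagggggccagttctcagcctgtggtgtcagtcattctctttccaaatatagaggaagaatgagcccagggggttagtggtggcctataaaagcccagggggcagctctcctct
Tnnt2: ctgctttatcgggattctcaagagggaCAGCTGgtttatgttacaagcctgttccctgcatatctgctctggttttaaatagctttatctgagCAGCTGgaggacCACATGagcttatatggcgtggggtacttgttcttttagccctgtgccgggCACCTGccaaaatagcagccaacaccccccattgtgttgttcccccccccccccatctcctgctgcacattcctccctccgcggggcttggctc
Myf5: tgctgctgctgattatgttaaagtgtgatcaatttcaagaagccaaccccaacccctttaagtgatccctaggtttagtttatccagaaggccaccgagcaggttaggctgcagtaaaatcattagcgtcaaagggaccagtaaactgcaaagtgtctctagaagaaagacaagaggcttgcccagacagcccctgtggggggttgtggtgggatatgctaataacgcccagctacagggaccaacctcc
The Myog window held 2 E-boxes, CACATG from position -138 and CAGTTG from position -12, counted back from the transcription start. Myh3 held 1 and Tnnt2 held 4, of which 2 were CAGCTG, whereas none was found in these 250 bases of Myf5. Of the windows not printed, that of Cdh15 held 3, those of Calcr 0 and 1 and that of Pax7 0, and none of these genes passed. Among genes described below as higher, Chrng held 3, Runx1 3 and 0 in its windows, and Cdkn1a 0 and 1. Among the printed windows, E-boxes were found in the higher genes and not in Myf5, but the windows not printed did not keep this split. Whether E-boxes go with a higher level was not tested. Among 32536 windows of the same length, 66.2% held at least 1 CANNTG and 13.1% held CAGCTG. The letters CTANNNNTA, a loose form of the site of MEF2 factors, were searched on both strands and occurred in 18.9% of all windows, with 1 match each in Myog and Myh3, 2 in Myf5 and none in the Tnnt2 window printed. RefSeq gives a second Tnnt2 start, whose window (chr1:135836739-135836988) held 1 E-box and 2 matches to CTANNNNTA. Such matches describe the sequence and were not tested for binding.

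The deposited values are regularized log (rlog) values, a log2 scale adjusted for library size on which each gene is drawn towards its own mean, most strongly where reads are few. A difference on this scale is thus smaller than the log2 fold change of counts, and depth and counting error are unknown. Des itself had rlog values of 11.76 to 11.89 in knock-out and 16.10 to 17.74 in wild-type mice, so every column carried the Des level of its label. All 10 skeletal muscle markers fixed for the check, among them Ckm, Acta1 and Myh4, were measured well above 0. Wild-type mouse 3 stood apart, its mean correlation to its group being 0.982, where the remaining wild-type mice had 0.989 to 0.991 and knock-out mice 0.996 to 0.997. It also had the highest or lowest wild-type value in 7 of the 10 genes. Without it 1335 genes were higher and 1161 lower among all tested, compared with 1100 and 856 with it.

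All 10 genes had a mean of at least log2(10), the limit for testing, and were fitted with limma among 14289 genes. In desmin knock-out muscle 4 of the 10 were higher at an adjusted p under 0.05 (Myog, Mymk, Mymx and Megf10), compared with 7.7% of all tested genes. Only Myod1 was lower, compared with 5.99% of all tested genes, and 5 did not pass. In either direction 5 of the 10 were called, where 13.7% of all tested genes were. Myog, Mymk and Mymx had 5 knock-out values above all 5 wild-type values, which held for 7.45% of tested genes, and for none of the 10 did all knock-out values lie below (6.97% of tested genes), so that 3 of 10 were separate in either direction, where 14.4% of tested genes were. The median log2 difference was 0.31 over the 10 genes and -0.0029 over all tested genes. The 10 genes were named with earlier results of these data known, so their share is a description and was not tested. In muscle RNA, fewer cells of a type and less RNA per cell cannot be told apart.

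**Figure D1:**
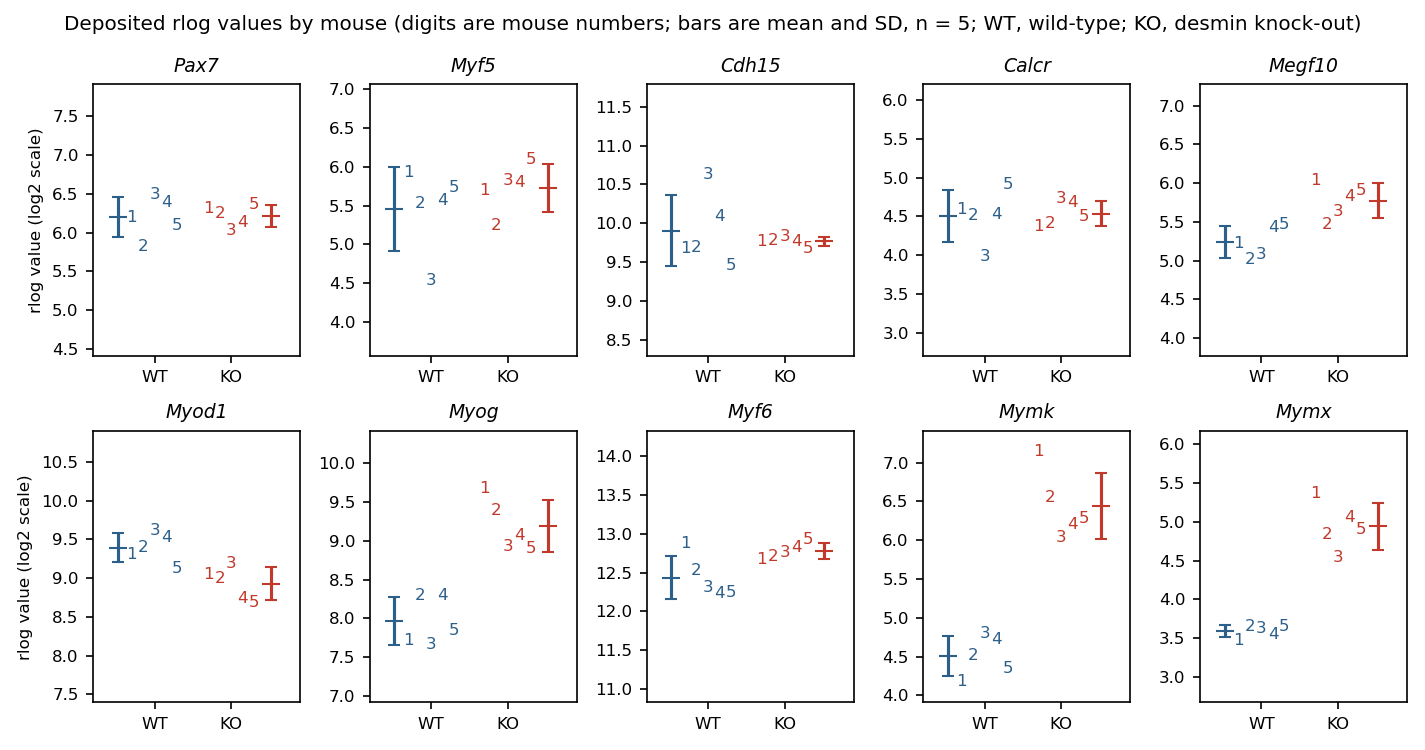
Deposited rlog values (log2 scale, each panel spanning the same range) of the 10 genes in 5 wild-type (WT, blue) and 5 desmin knock-out mice (KO, red), each digit being a mouse number and the bars the mean and SD. The groups are separate for Myog, Mymk and Mymx, and overlap for the other 7 genes.

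The satellite cell marker Pax7 (chromosome 4, 139737062 to 139833528, reverse strand) was at the same level in both genotypes as far as these mice can show. Its rlog values were 6.31, 6.24, 6.03, 6.14 and 6.37 in knock-out mice 1 to 5, and 6.20, 5.83, 6.49, 6.38 and 6.10 in wild-type mice 1 to 5. The knock-out values all lay inside the wild-type range. The difference of means (log2 scale, with its standard error, SE) was 0.015 (SE 0.13, 95% interval -0.28 to 0.31, adjusted p = 0.956 from limma), and its sign turned with median centring (-0.028) and quantile normalization (-0.049). A change in Pax7 of more than 0.31 in either direction on the rlog scale lies outside this interval. Over 17 alternatives the difference ran from -0.078 to 0.18, and none passed.

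Calcr (chromosome 6, 3685680 to 3764714, reverse strand) encodes the calcitonin receptor of quiescent satellite cells. It had 4.36, 4.41, 4.73, 4.68 and 4.50 in knock-out mice and 4.59, 4.51, 3.99, 4.52 and 4.91 in wild-type mice. Here, too, all knock-out values lay between the lowest and the highest wild-type value. The log2 difference of 0.032 (95% interval -0.31 to 0.37, adjusted p = 0.917 from limma) turned negative with median centring (-0.011), quantile normalization (-0.040) and sample weights (-0.018), and was -0.098 without wild-type mouse 3. The gene overlaps the microRNA genes Mir489 and Mir653, which lie on its own strand.

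Cdh15 (chromosome 8, 122847966 to 122867397, forward strand) encodes M-cadherin, which joins satellite cells to their fiber. Its values were close together in knock-out mice, from 9.67 to 9.83, and spread in wild-type mice, with 9.68, 9.68, 10.63, 10.09 and 9.45. Wild-type mouse 3 was the highest of all mice. The log2 difference was -0.14 (95% interval -0.52 to 0.24, adjusted p = 0.644 from limma), 0.039 without that mouse and 0.059 with sample weights. The predicted gene Gm20388 overlaps Cdh15 on the same strand, and how shared reads were assigned is not given in the sources used here.

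Myf5 (chromosome 10, 107482908 to 107486134, reverse strand), a factor of committed satellite cells, had 5.70, 5.24, 5.82, 5.79 and 6.09 in knock-out mice. Wild-type mice had 5.92, 5.53, 4.53, 5.56 and 5.73, of which mouse 3 was far below the others. The log2 difference of 0.28 (95% interval -0.23 to 0.78, adjusted p = 0.473 from limma) was 0.046 without wild-type mouse 3.

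Megf10 (chromosome 18, 57133090 to 57297467, forward strand), which encodes a receptor with EGF-like repeats found on satellite cells, was the only satellite cell gene of the 10 that passed. Knock-out mice had 6.03, 5.47, 5.63, 5.83 and 5.90, and wild-type mice had 5.22, 5.01, 5.07, 5.43 and 5.47. Of the 5 knock-out values, 4 lay above all wild-type values, while knock-out mouse 2 was just below the highest wild-type mouse. The log2 difference was 0.53 (SE 0.14, adjusted p = 0.0212 from limma). The adjusted p of Megf10 was 0.0611 without knock-out mouse 1, 0.0557 without knock-out mouse 4, 0.0624 without knock-out mouse 5 and 0.0552 without wild-type mouse 2.

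Myod1 (chromosome 7, 46376474 to 46379099, forward strand), the factor of activated satellite cells and myoblasts, moved opposite to Myog. Knock-out mice had 9.04, 8.99, 9.18, 8.74 and 8.68, and wild-type mice had 9.30, 9.40, 9.61, 9.53 and 9.13. Knock-out mouse 3 was above wild-type mouse 5, and the other 4 knock-out mice were below all wild-type mice. The log2 difference was -0.47 (SE 0.12, adjusted p = 0.0219 from limma). Myod1 missed the threshold without knock-out mouse 4 (adjusted p = 0.0669) or knock-out mouse 5 (adjusted p = 0.068), with a log2 difference between -0.54 and -0.41 over all mice left out in turn.

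Myog (ENSMUSG00000026459, chromosome 1, 134289989 to 134292548, forward strand), which directs terminal differentiation, was higher in every desmin knock-out mouse. Its values were 9.68, 9.39, 8.92, 9.07 and 8.90 in knock-out mice, compared with 7.72, 8.30, 7.66, 8.30 and 7.85 in wild-type mice. Even the lowest knock-out mouse exceeded the highest wild-type mouse. Group means of 9.19 ± 0.33 and 7.96 ± 0.31 (SD, n = 5 each) were 1.23 apart (SE 0.18, adjusted p = 3.75e-04 from limma), or 2.34-fold on the rlog scale. Myog passed in 17 of 17 alternatives, with log2 differences from 1.08 to 1.31. The gene starts 58.9 Mb from Des on the same chromosome. Chrng, Mcm6, Tnnt2, Col3a1 and Hdac4, described below, also lie on chromosome 1. Of these genes Chrng lies closest to Des, starting at 87204657 where Des starts at 75360329. An effect of DNA linked to Des was not tested.

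Myf6 (chromosome 10, 107492853 to 107494737, reverse strand), which lies 6.72 kb from Myf5, had the highest rlog values of the 10 genes. It had 12.67, 12.71, 12.76, 12.83 and 12.93 in knock-out mice and 12.88, 12.52, 12.31, 12.23 and 12.24 in wild-type mice. Wild-type mouse 1 lay among the knock-out mice and the other 4 wild-type mice lay below them. The log2 difference was 0.34 (SE 0.12, 95% interval 0.076 to 0.61) and missed the threshold (adjusted p = 0.0871 from limma). It passed without wild-type mouse 1 (log2 difference 0.46, adjusted p = 0.0102) and with quantile normalization (adjusted p = 0.0404).

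**Figure D2:**
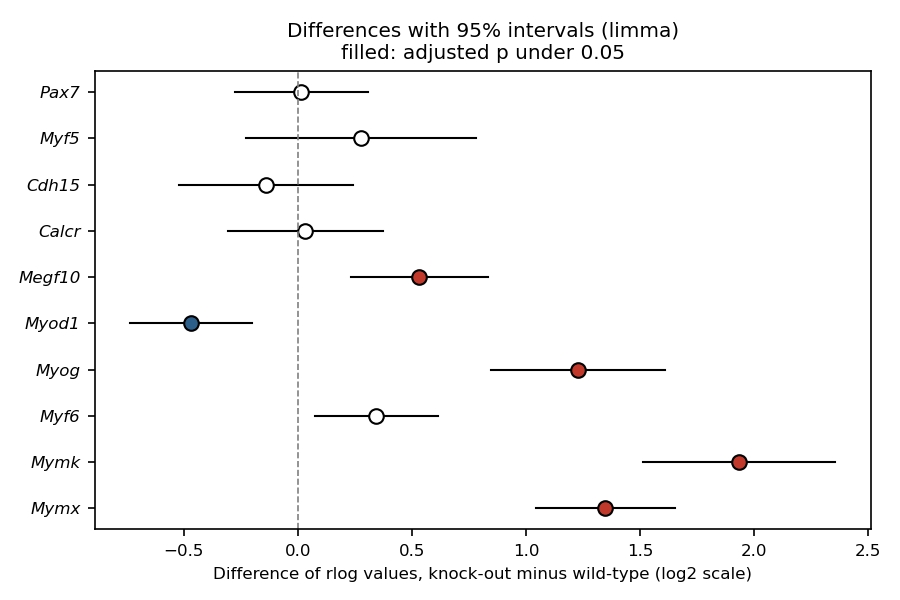
Difference of rlog values (knock-out minus wild-type, log2 scale) of the 10 genes, with points for limma estimates, lines for 95% intervals and filled points for an adjusted p under 0.05. Mymk, Mymx, Myog and Megf10 lie to the right of 0 and Myod1 to the left, while Myf6 is open although its interval starts at 0.076.

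The fusion genes changed most. Mymk (ENSMUSG00000009214, chromosome 2, 27061636 to 27072179, reverse strand), whose product myomaker is needed on the membrane of fusing cells, had 7.14, 6.55, 6.04, 6.20 and 6.28 in knock-out mice and 4.18, 4.52, 4.80, 4.71 and 4.34 in wild-type mice. The gap between the lowest knock-out and the highest wild-type mouse was larger than the spread within wild-type mice. The means of 6.44 ± 0.43 and 4.51 ± 0.26 (SD, n = 5 each) differed by 1.93 (SE 0.20, adjusted p = 2.11e-05 from limma), or 3.82-fold on the rlog scale. This was the largest difference among the 10 genes and lay between 1.76 and 2.03 over 16 alternatives.

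Mymx (ENSMUSG00000079471, chromosome 17, 45600971 to 45602102, reverse strand) encodes myomixer, a small membrane protein that completes the opening of the fusion pore. It had 5.37, 4.84, 4.54, 5.05 and 4.90 in knock-out mice and 3.48, 3.66, 3.63, 3.55 and 3.65 in wild-type mice. Wild-type values were nearly level (SD 0.078) and knock-out values spread more (SD 0.30). The log2 difference was 1.35 (SE 0.14, adjusted p = 2.94e-05 from limma) and stayed between 1.24 and 1.45 over 16 alternatives. With few reads expected at this level, rlog draws both the spread and the difference of Mymx together, by an amount that cannot be read from the table.

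For Myog, Mymk and Mymx the exact permutation test over the 10 mice gave p = 0.00794 each (two-sided), the smallest value that 5 against 5 mice allow, and for Myod1 and Megf10 it gave p = 0.0159 each. Knock-out mouse 1 was the highest knock-out mouse for Myog, Mymk, Mymx and Megf10. It was the lowest knock-out mouse for Myf6 and Calcr, and was not at either end for Pax7. Without this mouse all 3 of Myog, Mymk and Mymx stayed past the threshold.

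**Figure D3:**
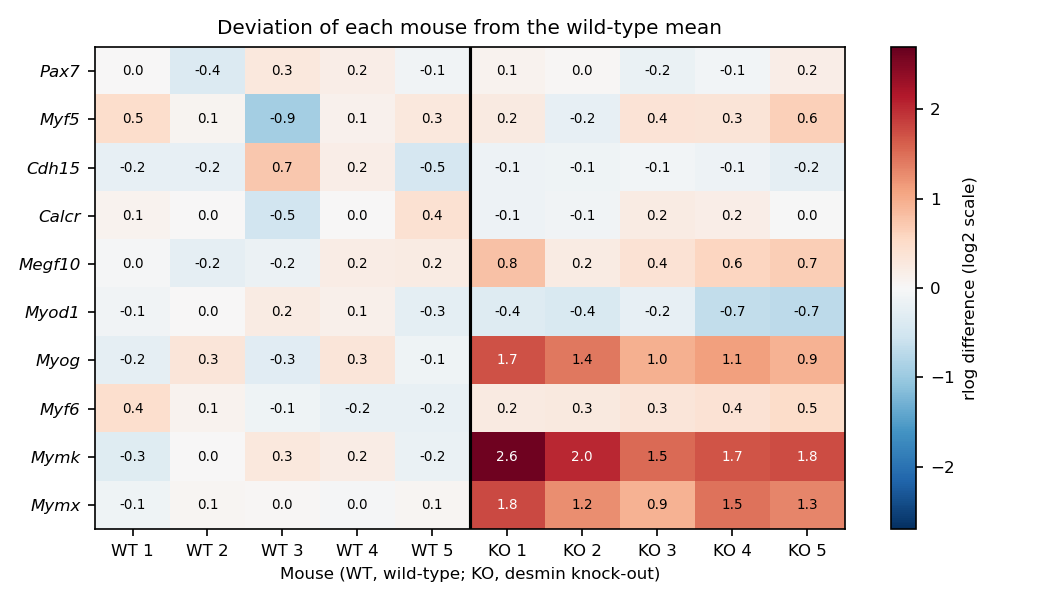
Deviation of each mouse from the wild-type mean of each gene (rlog difference, log2 scale, red above and blue below), with wild-type mice left and knock-out mice right of the line. In knock-out mice the rows of Myog, Mymk and Mymx are red throughout and that of Myod1 is blue throughout, while the row of Pax7 is pale in every mouse.

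Comparing genes within a mouse removes a shift that is equal for all rlog values of a column. A factor that acted before the rlog step can be drawn in unequally between genes and need not cancel. The rlog value of Myog minus that of Myod1 ranged from -0.26 to 0.63 in knock-out and from -1.96 to -1.10 in wild-type mice, without overlap. Myog minus Pax7 ranged from 2.53 to 3.37 in knock-out and from 1.16 to 2.47 in wild-type mice, and Mymk minus Pax7 from -0.092 to 0.83 and from -2.02 to -1.31. The 2 fusion genes differed less from each other, with Mymk minus Mymx at 1.15 to 1.77 in knock-out and 0.69 to 1.17 in wild-type mice, which overlap. Myf6 minus Myf5 had a mean of 7.05 in knock-out and 6.98 in wild-type mice. These values describe the mice and were not tested.

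To order the genes by level, log2 of the exon length in kb was subtracted from each mean rlog value. In wild-type muscle the level per kb was highest for Myf6 (12.10), followed by Myod1 (8.50), Cdh15 (8.20) and Myog (7.38). Myf5 (4.39), Mymk (3.91), Pax7 (3.65) and Mymx (3.55) came next, and Calcr (2.54) and Megf10 (2.29) were lowest. The ranges of the 5 wild-type mice overlapped between Myod1 and Cdh15, between each neighboring pair from Myf5 to Mymx, and between Calcr and Megf10, so these neighbors cannot be ordered. In desmin knock-out muscle Myog (8.61) was second to Myf6 (12.44), above Cdh15 (8.06) and Myod1 (8.03) in all mice. Mymk (5.85) and Mymx (4.90) stood above Pax7 (3.66) in every knock-out mouse.

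Genes whose profile over the 10 mice was most like that of a gene described here were found by the root mean square distance of values centered on each gene's mean. This distance includes the difference between genotypes, so a close gene also has a similar log2 difference and is no separate sign of a shared role. Closest to Myog were Map1b (0.18), Zap70 (0.19) and Tnnt2 (0.19), where Myog itself varied by 0.68 around its mean. The log2 differences of these genes were 1.13, 1.16 and 1.32. For Mymk they were Sgms2 (0.25), Ahnak2 (0.25) and Chrng (0.26), the last encoding the fetal subunit of the acetylcholine receptor. For Mymx they were Slc9b2 (0.14), Nckap5 (0.16) and Serinc5 (0.16). Closest to Myod1 were Zfat (0.080), Kif3c (0.087) and Aars (0.10), and closest to Pax7 were Mospd3 (0.069), Nagpa (0.082) and Xpa (0.097).

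Of 16 other genes known from satellite cells 15 were tested, with Pax3 under the limit, and their median log2 difference was 0.026. With limma, none was higher and 1 was lower (2 and 3 at an unadjusted p under 0.05), where 13.7% of all tested genes were called in either direction, and sample weights gave 3 higher. That gene was Sdc3, encoding the heparan sulfate proteoglycan syndecan-3, which was 8.23 ± 0.17 in knock-out and 8.71 ± 0.21 in wild-type muscle (SD, n = 5 each, log2 difference -0.48, adjusted p = 0.0193 from limma). Without knock-out mouse 3 its adjusted p was 0.0525. The Notch receptor gene Notch3 (-0.43), the Notch target Hey1 (-0.36) and Spry1 (0.37), an inhibitor of growth factor signaling, had the next smallest p and did not pass (adjusted p from 0.0724 to 0.101). Without wild-type mouse 1, Notch3 and Hey1 passed as well (adjusted p = 0.0389 and 0.0272), and Spry1 passed without wild-type mouse 5 (adjusted p = 0.0206). A count of 1 higher gene was reached without wild-type mouse 3 or 5.

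Partners and inhibitors of the myogenic factors were mixed. Of 19 genes, all tested, 2 were higher and 2 were lower, where 13.7% of all tested genes were called in either direction. The median log2 difference of the 19 genes was 0.058. Higher were Id2 (0.59, adjusted p = 0.00786 from limma), whose product binds E proteins without binding DNA, and Six4 (0.43, adjusted p = 0.0333), a homeobox factor of myogenesis. Lower were Smarcd3 (-0.78, adjusted p = 0.00544), which encodes the chromatin remodeling subunit BAF60C that works with MyoD, and the repressor gene Bhlhe40 (-0.36, adjusted p = 0.0285). Id2 and Smarcd3 passed in 17 of 17 alternatives. Six4 missed the threshold without any 1 of the knock-out mice or without wild-type mouse 1 (adjusted p from 0.0552 to 0.0888). Bhlhe40 missed it without knock-out mouse 1, 4 or 5 or wild-type mouse 1, 2 or 5 (adjusted p from 0.0502 to 0.0876), and without wild-type mouse 3 a total of 4 genes were lower.

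Beyond Mymk and Mymx, genes of myoblast adhesion and fusion did not share a direction. Of 28 genes 24 were tested, with a median log2 difference of 0.16, 3 higher and 2 lower. The share called in either direction was 13.7% over all tested genes. Higher were Nfatc2 (0.91, adjusted p = 5.89e-04 from limma), a calcium-regulated transcription factor of muscle growth, Jam3 (0.78, adjusted p = 0.00112), a junctional adhesion molecule, and the tetraspanin gene Cd81 (0.35, adjusted p = 0.0286). Lower was the scavenger receptor gene Stab2 (-1.38, adjusted p = 2.54e-04), whose product binds phosphatidylserine and which endothelial cells also express. Il4ra, encoding the interleukin-4 receptor, was lower as well (-0.37, adjusted p = 0.0362) and is named because it completes this count. Cd81 missed the threshold without any 1 of the knock-out mice or without wild-type mouse 2 (adjusted p from 0.0507 to 0.0756). Il4ra did so without knock-out mouse 2, 3 or 5 or wild-type mouse 1, 2 or 4 (adjusted p from 0.0606 to 0.0877). Without wild-type mouse 3 the counts were 5 higher and 5 lower, 5 were higher without wild-type mouse 1 or 5, and 4 were lower without knock-out mouse 1.

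Genes of newly formed fibers were mostly higher, with a median log2 difference of 0.85 over the 13 of 15 genes tested, 8 higher and 2 lower. Over all tested genes 7.7% were higher and 5.99% lower. Myh3 had the largest rise, with 8.96 to 9.65 in knock-out and 6.73 to 7.76 in wild-type mice (log2 difference 2.25, adjusted p = 5.89e-06 from limma). Cdkn1a, a cell cycle inhibitor that myoblasts switch on as they differentiate, was higher by 1.48 (adjusted p = 1.46e-06), Chrng by 1.85 (adjusted p = 9.66e-05) and Tnnt2 by 1.32 (adjusted p = 1.33e-04). The 2 lower genes were Cdkn1c (-0.48, adjusted p = 0.0189), another cell cycle inhibitor, and Actc1 (-0.83, adjusted p = 0.0352), the actin of heart and developing muscle, both named to complete the count. Cdkn1c missed the threshold without knock-out mouse 1, 2 or 5 (adjusted p from 0.0503 to 0.0516). Actc1 missed it without knock-out mouse 2, 3, 4 or 5 or wild-type mouse 2, 3 or 4 (adjusted p from 0.0511 to 0.0934) and with no expression limit (0.106), and without knock-out mouse 2 or 5 neither passed.

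Myog is also a gene of denervated fibers. Of 18 other genes known to respond to loss of the nerve, all tested, 11 were higher and 1 was lower. Among all tested genes these shares were 7.7% and 5.99%. The median log2 difference of the 18 genes was 0.67. Sln, the sarcolipin gene, was higher by 3.17 (adjusted p = 1.05e-09 from limma) and the transcription factor gene Runx1 by 1.79 (adjusted p = 1.24e-05), besides Cdkn1a and Chrng, which are in both lists together with Ncam1. Dach2, a repressor of Myog that falls after denervation, was the lower gene (-1.16, adjusted p = 0.0143), with 5.17 to 5.59 in knock-out and 5.31 to 7.17 in wild-type mice. The 6 genes that did not pass were Ncam1 (0.57), Musk (-0.49), Fgfbp1 (-0.28), Trim63 (-0.27), Fbxo32 (-0.17) and Hdac4 (0.089). Their adjusted p ran from 0.0731 for Ncam1 to 0.588 for Hdac4 (limma). The list holds genes that rise and, like Dach2, genes that fall after loss of the nerve. Its counts and median mix both and do not sort genes by the direction expected of each. The negative values of Musk, Fgfbp1, Trim63 and Fbxo32 are therefore not to be read as a fall like that of Dach2. Dach2 missed the threshold with no expression limit (adjusted p = 0.0541). With sample weights 4 genes were lower, and 2 when wild-type mouse 3 was left out.

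Genes of dividing cells gave 3 higher and 1 lower of 13 tested with limma (8 and 1 at an unadjusted p under 0.05), with a median log2 difference of 0.42. Of all tested genes 13.7% were called in either direction. Rrm2 (1.29, adjusted p = 2e-05 from limma), Birc5 (0.67, adjusted p = 9.9e-04) and Mcm6 (1.32, adjusted p = 0.0161) were higher, and Mcm2, a partner of Mcm6 in the same helicase, was lower (-0.48, adjusted p = 0.0064). Mki67, a general marker of cycling cells, had 5.30, 4.41, 4.62, 5.69 and 5.99 in knock-out mice and 4.47 to 4.75 in wild-type mice (log2 difference 0.60, adjusted p = 0.142). Mice 4 and 5, the knock-out mice with most Mki67, were not those with most Myog. The count of higher genes was 5 without knock-out mouse 2, 8 with sample weights, and 1 of the 5 genes that reached a limit of log2(50). Mcm6 missed the threshold with no expression limit (adjusted p = 0.0609).

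**Figure D4:**
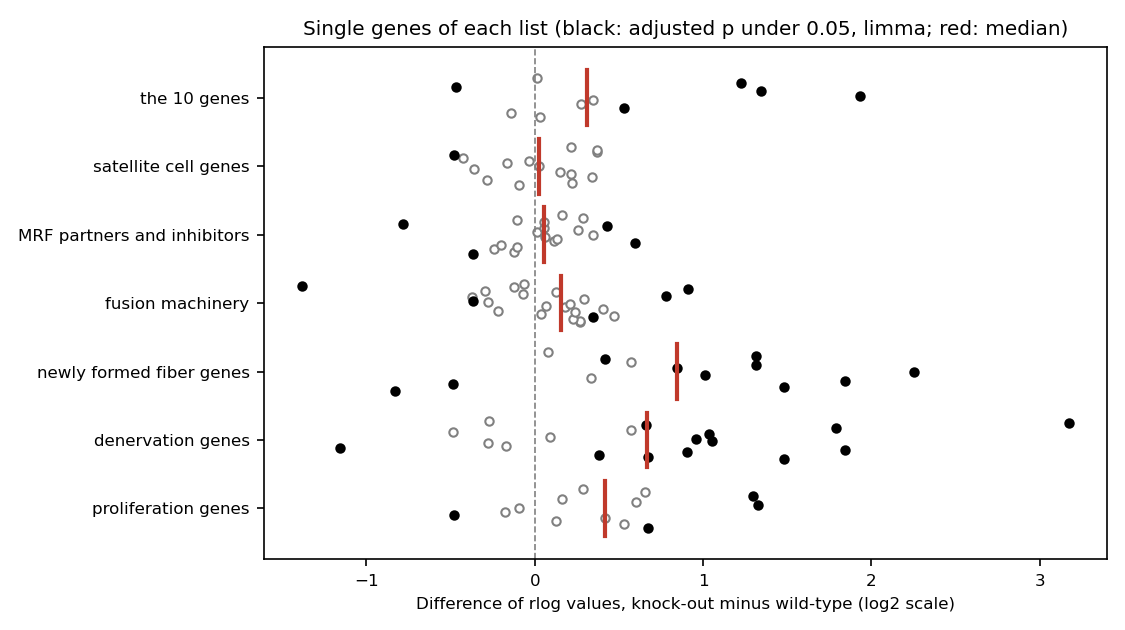
Difference of rlog values (knock-out minus wild-type, log2 scale) of single genes in the 10 genes described here and 6 further lists, with black points for an adjusted p under 0.05 (limma), open points for genes that did not pass and a red line for the median. Satellite cell genes and MRF partners center near 0, whereas newly formed fiber genes (median 0.85) and denervation genes (0.67) lie mostly to the right.

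Markers of other cells were measured beside these genes, since satellite cells are a small part of the sample. With limma none of 10 macrophage, 8 Schwann cell or 6 smooth muscle markers passed, nor did any at an unadjusted p under 0.05. Among those with the smallest p, the log2 differences of the markers named here ran from -0.18 (Csf1r) to 0.24 (Mrc1) for macrophages, with C1qa and Cd68 between them, and from -0.21 (Prx) to 0.36 (Cdh19) for Schwann cells, with Pmp22 between them. For smooth muscle they ran from -0.36 (Myh11) to -0.24 (Tagln), with Acta2 and Rgs5 between them, and with sample weights 3 of the 6 passed as lower. Of 8 endothelium markers 5 were lower, namely Vwf (-0.62), Cdh5 (-0.52), Pecam1 (-0.49), Tie1 (-0.48) and Tek (-0.41). Over all tested genes 5.99% were lower. The summed level of all 8 endothelium markers (2 to the power of the rlog value) was 3730 to 5061 in knock-out and 5166 to 6897 in wild-type mice. The count of lower endothelium markers was 3 without any 1 of the knock-out mice or without wild-type mouse 2. Among 5 tested erythroid markers Alas2 (adjusted p = 0.0161 from limma) and Hbb-bs (log2 difference -0.74) were lower. Hbb-bt (-0.79, adjusted p = 0.0568) and Hba-a1 (-0.65, adjusted p = 0.143 from limma) did not pass. The summed level of all 6 listed erythroid markers was 2877 to 4352 in knock-out and 4097 to 10608 in wild-type mice. Hbb-bt passed without wild-type mouse 3 (adjusted p = 0.011), with quantile normalization (0.0452) and with sample weights (0.00241), and Hba-a1 passed with sample weights (0.0277) or without wild-type mouse 5 (0.03). These near-identical globin genes can share reads, and the count of lower erythroid markers was 1 without knock-out mouse 1, 3 or 4 and 4 with sample weights.

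Fibroblast markers were mixed, with Lum (0.99), Col1a1 (0.50), Col3a1 (0.52) and Mfap5 (0.38) higher and Ly6a (-0.40) and Cd248 (-0.64) lower of 10 tested. In either direction 13.7% of all tested genes were called. The summed level of the fibroblast markers was 15128 to 22703 in knock-out and 12493 to 22032 in wild-type mice. Of these markers 1 or 2 were higher when any mouse other than knock-out mouse 3 or wild-type mouse 5 was left out. Without wild-type mouse 3, Col3a1 (adjusted p = 0.0582), Mfap5 (0.0521) and the endothelial gene Tek (0.0528) were among those that missed the threshold. Of the 10 skeletal muscle markers, the fast fiber genes Actn3 (-0.97) and Myh4 (-0.71) were lower, Myh2 (0.77) was higher and Pvalb (-0.48, adjusted p = 0.11 from limma) did not pass. Their summed level was 4883510 to 5515300 in knock-out and 5571750 to 10938700 in wild-type mice, the highest being mouse 3. Actn3 did not pass without knock-out mouse 4 or 5 (adjusted p = 0.0501 and 0.0556), nor did Myh4 without any 1 of the knock-out mice or without wild-type mouse 1, 2 or 4 (adjusted p from 0.0568 to 0.105), and Myh2 did not without knock-out mouse 1, 2 or 3 (adjusted p from 0.0541 to 0.0562), while 3 of these markers were higher without wild-type mouse 3. No marker of any list was at 0 in all mice. The part of these other cells and of fiber type in the values of the 10 genes was not tested.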

How the data were processed

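Stranded mRNA libraries of gastrocnemius RNA were sequenced for 5 mice of each Des genotype. Per the submitters' processing notes, the tools were cutadapt 2.5, STAR 2.5.4a, Subread 1.6.1 (featureCounts) and DESeq2, with build GRCm38, and whether reads were counted by strand is not given in the sources used here. The authors deposited 1 table of rlog values (log2 scale). No counts were used, so depth per mouse is unknown.

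The two-sided test was limma 3.58.1 (R 4.3.3) with an intensity-dependent prior variance, run on the 14289 of 54232 genes whose mean reached log2(10), and p-values were adjusted over all of them by Benjamini-Hochberg. The script was tested on simulated data. Symbols (54079 genes) and positions came from GENCODE M21. The named genes were the 10 genes, Des, from each list at most 4 genes, those of smallest adjusted p, and the 3 closest profiles of Pax7, Myod1, Myog, Mymk and Mymx. Further genes that complete a small count, Hdac4 and Mki67 were named after their values had been seen, and 1 gene that the rule names is not reported here. The 10 genes, the lists and the tests were chosen with earlier results of these data known. Replicate numbers gave no sign of pairing between mice, and the main test used none. As alternatives, the expression limit was dropped or set to log2(50), columns were centred on their median or quantile normalized, 1 prior variance, sample weights or a replicate block was used, and each mouse was left out.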

Additional observations from a re-analysis of the deposited data

Results flagged for a closer look

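Among 20 groups of 5 mice (each of the 10 genes in each genotype), 1 held a mouse far from the other 4 by Dixon's criterion, and chance alone gives about 1. It was Myf5 in wild-type mouse 3, with an rlog value of 4.53, where wild-type mice 1, 2, 4 and 5 had 5.53 to 5.92. No cause was tested.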

How the results depend on the processing

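Under the limit of log2(50), which Mymk, Mymx, Megf10, Myf5 and Calcr do not reach, 1 of the 5 remaining genes was higher (Myog), because fewer genes were tested. Sample weights gave 2093 higher and 2127 lower genes among all tested, compared with 1100 and 856. The counts and the balance of directions thus depend on the weights. These were lowest for wild-type mice 3 (0.10) and 4 (0.27) and highest for knock-out mice 4 (4.21) and 5 (3.22). Results with sample weights therefore lean on some mice far more than on others. With median centring 49.0% of all called genes were higher, compared with 56.2%. With 1 mouse left out at a time, between 0 and 1 of the 10 genes and between 560 and 1161 of all genes were lower, the lowest without knock-out mouse 5. Of the 5 genes that did not pass, Myf5 and Myf6 kept a positive sign in all alternatives that tested them, and Pax7, Calcr and Cdh15 turned sign in some. Pax7 was -0.028 with median centring and -0.049 with quantile normalization, and -0.078 to 0.088 with 1 mouse left out. Its largest value over all 17 alternatives was 0.18, and none passed (smallest adjusted p = 0.225 from limma). Calcr was -0.011, -0.040 and, with sample weights, -0.018, and -0.098 to 0.13 with 1 mouse left out. Cdh15 was 0.059 with sample weights and -0.25 to 0.039 with 1 mouse left out. The cause was not tested. Correlations of deviations between same-numbered mice ranged from -0.22 to 0.067, and none of the 5 knock-out mice correlated best with its own number. The numbers thus gave no sign of pairing, which these values cannot exclude. With the replicate block 913 genes were higher and 666 lower, 4 of the 10 genes were higher and 1 lower, and of the further genes named Sdc3, Bhlhe40, Six4, Cd81, Il4ra, Myh4, Tie1, Tek and Mfap5 missed the threshold. With no expression limit, where more genes were tested, the 10 genes gave the same counts of 4 and 1, and Bhlhe40, Six4, Cd81, Actc1, Dach2, Mcm6, Myh2, Actn3, Myh4, Col1a1, Col3a1, Mfap5, Tie1, Tek, Alas2 and Hbb-bs missed the threshold (adjusted p from 0.0503 to 0.128). Sample weights gave 7 higher and 6 lower fusion genes and 5 lower partners of the myogenic factors. Distances between profiles and within-mouse differences were computed in the deposited values only. Depth is unknown, and how far rlog shrinkage limits each gene cannot be read from the table.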
